A study of Mus musculus with 6 samples.

Results

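The genes of Fc receptors, ITAM adaptors and the kinase Syk were followed across the 6 libraries of a Sox9 loss-of-function experiment in the mouse olfactory bulb. These 8 genes are the rows of the deposited tables with the symbols Fcgr1, Fcgr2b, Fcgr3, Fcgr4, Fcgrt, Fcer1g, Tyrobp and Syk, which makes 8 of the 24421 genes listed. All 8 were found in all 6 libraries, and all 8 passed the filter on low values (a mean of at least 1 normalized count), which left 18413 genes to test. The cells came from the olfactory bulbs of adult C57BL/6 males, 3 control and 3 Sox9 KO, with 1 library per mouse. Both groups had received AAV-GFAP-iCre-P2a-TurboRFP in the bulb, a virus in which the GFAP promoter, active in astrocytes, drives Cre recombinase together with a red fluorescent protein, so that the control cells expressed Cre as well. KO mice carried Sox9 fl/fl alleles, in which loxP sites allow Cre to remove part of Sox9, a transcription factor of astrocytes. Control mice were C57BL/6J with unmodified Sox9 alleles. At 4 weeks, cells positive for TurboRFP were sorted straight into lysis buffer, so the sorted cells themselves were not examined again. The study states that purity was instead established in the RNA-seq data from known markers of cell types.

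Fc receptors bind the constant part of antibodies. The activating receptors FcγRI, FcγRIII and FcγRIV, encoded by Fcgr1, Fcgr3 and Fcgr4, carry no signalling tail of their own and rely on the common gamma chain encoded by Fcer1g. That chain, like the related adaptor DAP12 encoded by Tyrobp, holds an immunoreceptor tyrosine-based activation motif (ITAM), which Src family kinases phosphorylate and to which the kinase Syk then binds. FcγRIIb, encoded by Fcgr2b, carries an inhibitory motif (ITIM) in its place and recruits phosphatases. Fcgrt encodes the heavy chain of the neonatal Fc receptor FcRn, an MHC class I-like protein that pairs with beta-2 microglobulin and recycles IgG and albumin. In the brain, the Fcγ receptors and both adaptors are known from microglia and border macrophages rather than from astrocytes.

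Fcgr2b, Fcgr4, Fcgr3 and Fcer1g lie in one stretch of 274 kb on chromosome 1 (mm10). The 100 bases before the first listed RefSeq start site (GRCm38.p6) are given for the 4 Fcγ receptors. They are also given for Fcgrt, whose change was the smallest of the 8. Each runs 5′ to 3′ on the strand of the gene. Capitals mark a match, on the opposite strand, to a motif searched on both strands.
Fcgr1, chr3:96293970-96294069, minus strand: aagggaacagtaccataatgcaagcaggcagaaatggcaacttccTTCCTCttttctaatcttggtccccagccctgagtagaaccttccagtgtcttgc
Fcgr3, chr1:171059404-171059503, minus strand: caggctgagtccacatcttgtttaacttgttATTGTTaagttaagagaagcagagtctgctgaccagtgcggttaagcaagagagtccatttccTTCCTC
Fcgr4, chr1:171018826-171018925, plus strand: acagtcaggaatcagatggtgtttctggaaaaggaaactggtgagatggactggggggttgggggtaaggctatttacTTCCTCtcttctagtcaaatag
Fcgr2b, chr1:170976072-170976171, minus strand: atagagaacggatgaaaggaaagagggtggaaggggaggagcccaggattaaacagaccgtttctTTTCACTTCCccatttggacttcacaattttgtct
Fcgrt, chr7:45103823-45103922, minus strand: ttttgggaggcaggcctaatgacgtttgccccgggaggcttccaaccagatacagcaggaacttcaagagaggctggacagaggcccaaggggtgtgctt

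The motifs were searched in the window from 250 bases before to 50 bases after each start. GAGGAA, the core that PU.1 binds in myeloid genes, is in 28.3% of the 32851 RefSeq promoters of that length. It matched in Fcgr1 (bases -55 to -50 from the start), in Fcgr3 (-6 to -1) and in Fcgr4 (-22 to -17). The Ets-IRF composite element, to which an Ets factor and an interferon regulatory factor bind together, is in 2.72% of promoters and matched in Fcgr2b (-35 to -26). AACAAT, a core bound by SOX proteins, is in 10.7% and matched in Fcgr3 (-69 to -64). Both of the first 2 motifs hold the Ets core GGAA, so that their matches could overlap, but no overlapping matches were found in these genes. The windows of Fcgrt and Fcer1g held no match. Syk has 2 listed starts, of which the second had a GAGGAA match (-9 to -4), and the second start of Fcgr3 gave the same matches as the first. The listed starts of Fcgr3 and Syk lie inside the intervals given for these genes. The bases before the 5′ ends of those 2 intervals were not searched. Tyrobp had no entry in the table.

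The libraries held between 18242129 and 86906527 reads on genes, and the values given are normalized counts, that is, reads divided by 1 size factor per library. The lowest number of reads behind any value of the 8 genes was 221. Sox9 was between 4921 and 6562 normalized counts in the control libraries and between 52.6 and 64.3 in the KO libraries. In the KO libraries 22.2% of the genes tested were called higher and 28.8% lower, a call being an adjusted p under 0.05 and a difference of at least 1.5-fold in limma with Benjamini-Hochberg adjustment over the 18413 genes. This split changed with the scaling. After scaling to an equal total it was 15.9% higher and 33.6% lower, with an equal total without the ribosomal RNA gene Rn45s 14.3% and 35.8%, and after quantile normalization 29.2% and 22.3%. These scalings moved the median log2 fold change of all genes tested by -0.23, -0.31 and 0.27, in that order.

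All 8 genes were called higher in the KO libraries. Every KO library was above every control library for each of the 8, which held for 32.4% of the genes tested. The same 8 were called higher by the edgeR quasi-likelihood test, which called 23.6% of genes higher, and by DESeq2, which called 21.7%. The median log2 fold change of the 8 genes was 2.005, beside -0.07 over all genes tested. Together the 8 genes made up between 0.0849% and 0.0997% of all normalized counts in the control libraries and between 0.317% and 0.378% in the KO libraries. In bulk RNA of this kind, a different share of cells of a type and a different amount of RNA per cell cannot be told apart. All adjusted p-values given for single genes are from limma, over all genes tested, with 3 libraries per group.

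**Figure D1:**
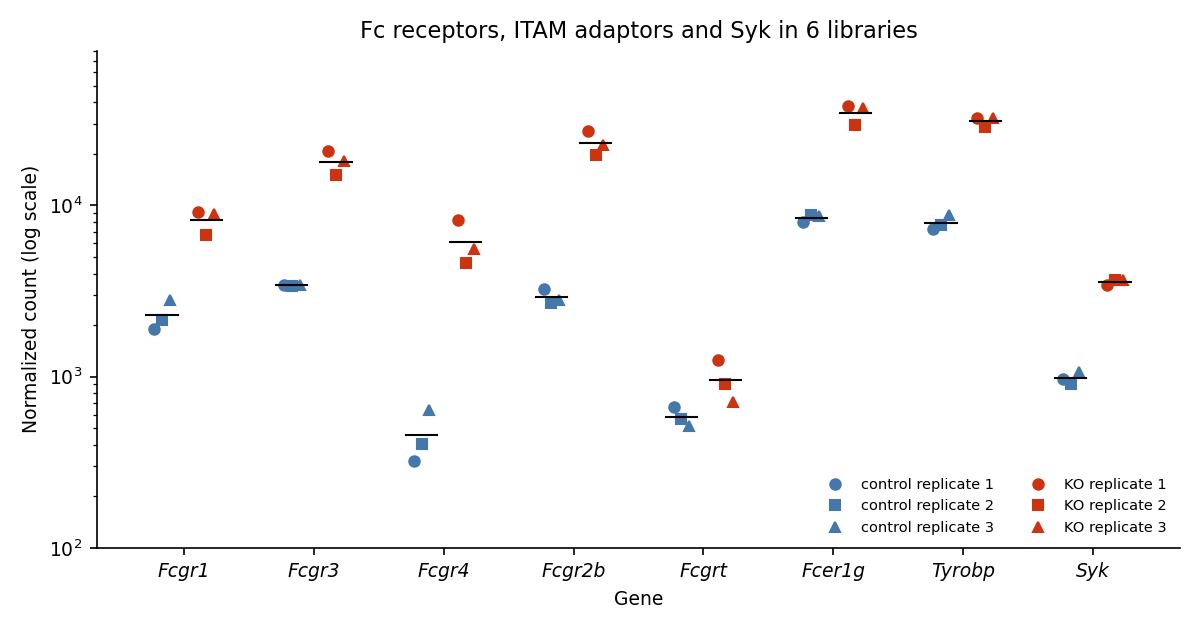
Normalized counts (vertical axis, log scale) of the 8 genes (horizontal axis) in the 3 control libraries (blue) and the 3 KO libraries (red), with a black bar at each group mean and a marker shape for each replicate number. The groups are apart for each gene, widely for Fcgr4 (323 to 642 against 4638 to 8201) and narrowly for Fcgrt (512 to 663 against 716 to 1243).

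Among the activating receptors, Fcgr4 differed most. FcγRIV is the mouse receptor of intermediate affinity for IgG2a and IgG2b, and its gene lies at chr1:171018926-171029761. It was at 323, 403 and 642 normalized counts in control replicates 1, 2 and 3 and at 8201, 4638 and 5552 in KO replicates 1, 2 and 3. The lowest KO library was thus 7.23-fold above the highest control library, although each group was itself spread widely. The mean rose from 456 ± 166 to 6130 ± 1851 (SD, n = 3), a log2 fold change of 3.77 (SE 0.25, adjusted p = 5.73e-07), or 13.6-fold with a 95% interval of 9.19 to 20.1. Only 49 of the genes tested (0.266%) had a larger log2 fold change.

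FcγRIII, the low-affinity activating receptor for IgG immune complexes, is encoded at chr1:171051169-171065915. Fcgr3 was at 3439, 3384 and 3435 normalized counts in the control libraries and at 20719, 14998 and 18259 in the KO libraries. The control libraries were nearly equal, and the spread was in the KO group. Its mean rose from 3419 ± 30.5 to 17992 ± 2870 (SD, n = 3), with a log2 fold change of 2.38 (SE 0.11, adjusted p = 6.19e-08), or 5.22-fold (4.37 to 6.23).

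FcγRI is the high-affinity IgG receptor, encoded at chr3:96282909-96293969. Fcgr1 was at 1903, 2154 and 2818 normalized counts in the control libraries and at 9101, 6719 and 8939 in the KO libraries. The mean rose from 2292 ± 473 to 8253 ± 1331 (SD, n = 3). Its log2 fold change of 1.85 (SE 0.16, adjusted p = 3.16e-06), or 3.62-fold (2.83 to 4.62), was the smallest among the 4 Fcγ receptors.

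Fcgr2b, the gene of the inhibitory receptor, lies at chr1:170960558-170976071. It was at 3232, 2704 and 2810 normalized counts in the control libraries and at 27024, 19788 and 22526 in the KO libraries. The lowest KO library was 6.12-fold above the highest control library. The mean rose from 2916 ± 280 to 23113 ± 3654 (SD, n = 3), a log2 fold change of 2.98 (SE 0.12, adjusted p = 2.86e-08), or 7.88-fold (6.52 to 9.53). This inhibitory receptor therefore stood between Fcgr4 and Fcgr3 in the size of its change, and 127 of the genes tested (0.690%) changed by more in the same direction.

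Fcgr3 and Fcgr2b are similar in sequence, and some of their reads could be assigned to either gene. Of the 50-base words in the annotated transcripts of Fcgr3, 9.58% also occur in those of Fcgr2b, and 2.92% of the words of Fcgr2b occur in Fcgr3. With other genes included, 6.95% of the words of Fcgr2b occur in another gene, among them in Gm38204, Cplx2, Gm47409 and Rab3c. The other 6 genes shared no such word with any gene. An antisense gene, Gm38204, overlaps 155 exon bases of Fcgr2b (2.68%), and whether the counting used strand could not be established from the sources used here, so that reads within these bases may come from either strand.

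Fcgrt changed least of the 8 genes. It lies at chr7:45092993-45103822 and was at 663, 566 and 512 normalized counts in the control libraries and at 1243, 907 and 716 in the KO libraries. The lowest KO library was 1.08-fold above the highest control library. The mean rose from 581 ± 76.6 to 955 ± 267 (SD, n = 3), with a log2 fold change of 0.69 (SE 0.19, adjusted p = 0.00968), or 1.61-fold (1.2 to 2.16), and 4402 of the genes tested (23.9%) had a larger log2 fold change. Unlike for the other 7 genes, this call depended on the processing. It was lost without control replicate 3 (adjusted p = 0.0636) and, by the size of the change, without KO replicate 1 (log2 fold change 0.48, adjusted p = 0.0341), and it was also lost after scaling to an equal total (0.45, or 0.36 without Rn45s) and with no trend of the variance on the mean (adjusted p = 0.0501).

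The adaptors changed by nearly the same factor. Fcer1g, the common gamma chain, lies at chr1:171229572-171234349. It was at 7950, 8763 and 8658 normalized counts in the control libraries and at 37885, 29501 and 37072 in the KO libraries. Its mean rose from 8457 ± 443 to 34819 ± 4624 (SD, n = 3), a log2 fold change of 2.03 (SE 0.11, adjusted p = 1.44e-07), or 4.10-fold (3.44 to 4.87). Tyrobp, which encodes DAP12 and lies at chr7:30413782-30417582, was at 7301, 7688 and 8745 in the control libraries and at 32522, 28514 and 32235 in the KO libraries. Here too the libraries of a group lay close together and far from those of the other group. The mean of Tyrobp rose from 7911 ± 747 to 31090 ± 2236 (SD, n = 3), with a log2 fold change of 1.98 (SE 0.10, adjusted p = 9.01e-08), or 3.93-fold (3.37 to 4.60).

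Syk, the kinase that docks on phosphorylated ITAMs, lies at chr13:52582610-52648792. It was at 970, 904 and 1058 normalized counts in the control libraries and at 3442, 3663 and 3657 in the KO libraries. On average it rose from 977 ± 77.3 to 3587 ± 126 (SD, n = 3), a log2 fold change of 1.88 (SE 0.10, adjusted p = 8.67e-08), or 3.67-fold (3.17 to 4.26). The KO libraries were closer together for Syk than for any other of the 8 genes, relative to their mean.

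**Figure D2:**
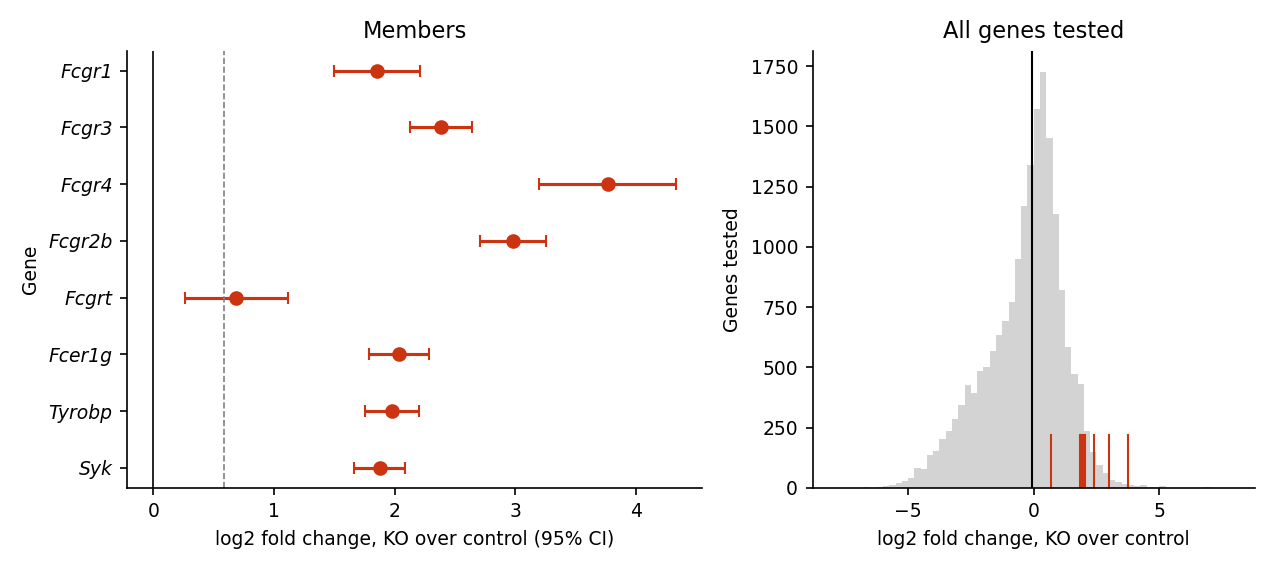
Left, log2 fold change of each gene, KO over control (horizontal axis), with the 95% confidence interval from limma, a solid line at 0 and a dashed line at 1.5-fold. Right, the log2 fold changes of all 18413 genes tested as a histogram (grey), with the 8 genes as red lines. Fcgr1, Fcer1g, Tyrobp and Syk lie between 1.85 and 2.03, Fcgr3, Fcgr2b and Fcgr4 above them, and Fcgrt at 0.69.

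Side by side, neighbouring intervals of the fold changes mostly overlapped. The interval of Fcgr1 overlapped those of Fcer1g, Tyrobp and Syk, those of Fcgr1, Fcer1g and Tyrobp overlapped that of Fcgr3, and that of Fcgr2b reached into that of Fcgr4 (9.19 to 20.1). Fcgr2b (6.52 to 9.53) lay above Fcgr3 (4.37 to 6.23), and Fcgrt (1.2 to 2.16) lay below all others. KO replicate 2 was the lowest KO library for 6 of the genes, the exceptions being Syk and Fcgrt, and KO replicate 1 was the highest for all but Syk. Summed over the 8 genes, the level was 140138, 108728 and 128955 normalized counts in KO replicates 1, 2 and 3. KO replicate 2, with the lowest sum, was also the library with the most reads.

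The levels of the genes were compared with each other as normalized counts per kb of the longest annotated coding transcript (GENCODE vM21). In the control libraries, Tyrobp had the highest level at 14027 per kb (library values 12945 to 15505), just above Fcer1g at 12382 (11639 to 12831). Fcgr3 followed at 2538 (2512 to 2553). Fcgr1 at 885 (735 to 1089) and Fcgr2b at 823 (763 to 912) overlapped, as did Fcgr4 at 363 (257 to 511) and Fcgrt at 328 (289 to 375). Syk was lowest, at 182 (168 to 197). Levels per kb thus placed both adaptors well above every receptor and the kinase.

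The order was partly different in the KO libraries. Tyrobp at 55125 per kb (50557 to 57663) and Fcer1g at 50980 (43193 to 55468) overlapped. Fcgr3 followed at 13357 (11135 to 15382), and Fcgr2b at 6522 (5583 to 7625) overlapped with Fcgr4 at 4881 (3692 to 6529). Fcgr1, level with Fcgr2b in the control libraries, was below both at 3188 (2595 to 3515). Syk at 669 (642 to 683) and Fcgrt at 540 (404 to 702) overlapped at the bottom of the order. The place of 2 genes depended on the transcript chosen. By the shortest coding transcript, Fcgr2b came to 2690 per kb in the control and 21322 in the KO libraries, beside 2582 and 13589 for Fcgr3, and Syk to 388 and 1424.

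Ratios between genes were compared within each library for 4 pairs, which takes the size factor out of the value. With 3 libraries per group, the smallest two-sided p of the exact permutation test is 0.1, so none of these comparisons can pass 0.05, and adjusted p-values are over the 4 ratios. The ratios are of normalized counts, not per kb, and only their change between groups is compared. The log2 ratio of Fcgr3 to Fcgr2b, the activating to the inhibitory low-affinity receptor, was 0.09, 0.32 and 0.29 in the control libraries and -0.38, -0.40 and -0.30 in the KO libraries. Its mean went from 0.23 ± 0.13 to -0.36 ± 0.05 (SD, n = 3), a difference of -0.60 (exact permutation p = 0.1, adjusted p = 0.133), with no overlap. On the linear scale, the ratio was between 1.06 and 1.25 in the control and between 0.758 and 0.811 in the KO libraries.

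The other receptors moved against Fcgr2b in opposite directions. The log2 ratio of Fcgr1 to Fcgr2b was -0.76, -0.33 and 0.004 in the control and -1.57, -1.56 and -1.33 in the KO libraries, a difference of -1.12 (exact permutation p = 0.1, adjusted p = 0.133). For Fcgr4 to Fcgr2b it was -3.32, -2.74 and -2.13 in the control and -1.72, -2.09 and -2.02 in the KO libraries, a difference of 0.79 (exact permutation p = 0.1, adjusted p = 0.133). The groups did not overlap in either, although for Fcgr4 the nearest values, in control replicate 3 and KO replicate 2, were only 0.04 apart. The ratio of the adaptors, Fcer1g to Tyrobp, was 0.10 ± 0.10 in the control and 0.16 ± 0.09 in the KO libraries (SD, n = 3), a difference of 0.06 (exact permutation p = 0.5, adjusted p = 0.5), and its groups overlapped.

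**Figure D3:**
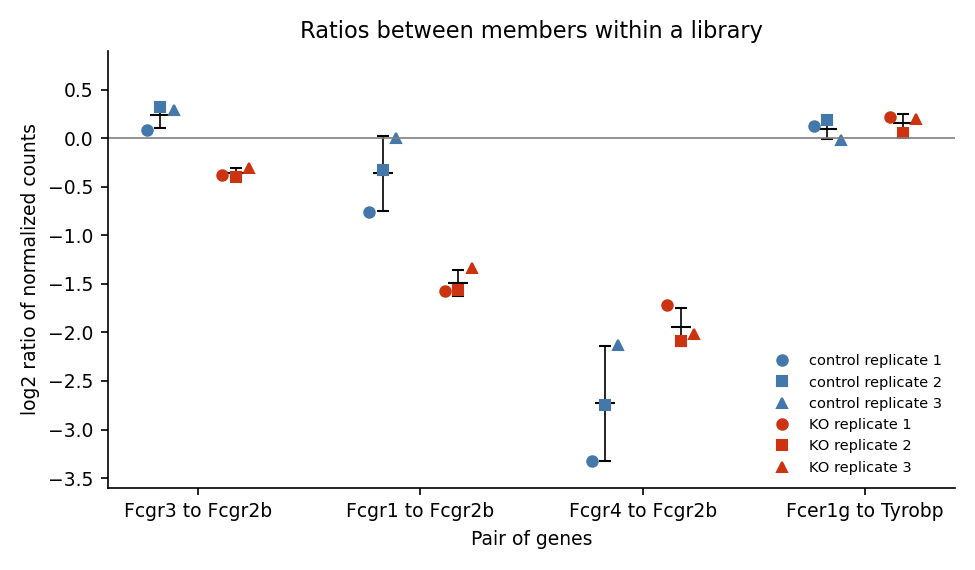
Log2 ratio of normalized counts within each library (vertical axis) for 4 pairs of genes (horizontal axis), control in blue and KO in red, with the group mean and SD in black. The ratios of Fcgr3 and Fcgr1 to Fcgr2b are lower in all 3 KO libraries, that of Fcgr4 to Fcgr2b is higher, and the groups overlap for Fcer1g to Tyrobp.

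Markers of microglia moved with these genes. All 10 microglia markers, among them Csf1r, Cx3cr1, P2ry12 and Tmem119, were called higher in the KO libraries, with a median of 1.92 on the log2 scale, and their summed level went from between 137156 and 169291 normalized counts to between 474328 and 597276. All 10 astrocyte markers, among them Slc1a2, Aqp4 and Gfap, were called lower, with a median of -3.97, and their sum went from between 453190 and 503934 to between 31861 and 40648. The sorted cells are labelled as astrocytes, and in the KO libraries the summed microglia markers were thus above the summed astrocyte markers. No marker of either list was at 0 in all libraries. In KO replicates 1, 2 and 3 the microglia markers summed to 577084, 597276 and 474328, so that KO replicate 2, lowest for the 8 genes together, was highest for these markers.

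Each gene was therefore also set against the mean log2 value of the 10 microglia markers in the same library. Fcgr1, Fcer1g, Tyrobp and Syk differed between groups on this scale by 0.02, 0.19, 0.14 and 0.04, and their groups overlapped (exact permutation p between 0.4 and 0.9, n = 3 per group, adjusted p over the 8 genes between 0.64 and 0.9). The other Fcγ receptors were higher relative to the markers in every KO library than in any control library, Fcgr4 by 1.93, Fcgr2b by 1.14 and Fcgr3 by 0.54. Fcgrt was lower relative to the markers in every KO library than in any control library, with a difference of -1.15. For each of these 4 genes the exact permutation p was 0.1, the smallest the design allows, and the adjusted p was 0.2. For Fcgr2b, the values were -1.95, -1.94 and -1.84 in the control and -0.62, -1.12 and -0.58 in the KO libraries. The small differences of Fcgr1, Tyrobp and Syk changed sign in some of the fits without 1 library or with the median in place of the mean of the markers, and those of the other 5 genes changed sign in none of them. These relative values depended on the markers chosen. Against the 10 microglia and 8 border macrophage markers together, whose members moved in different directions, Fcgr1, Fcer1g, Tyrobp and Syk were higher in every KO library than in any control library, by 1.01, 1.19, 1.13 and 1.03 (exact permutation p = 0.1 for each, n = 3 per group). On that scale Fcgr4, Fcgr2b and Fcgr3 were higher by 2.92, 2.13 and 1.54 (exact permutation p = 0.1), and Fcgrt differed by -0.16 with overlapping groups (exact permutation p = 0.7).

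**Figure D4:**
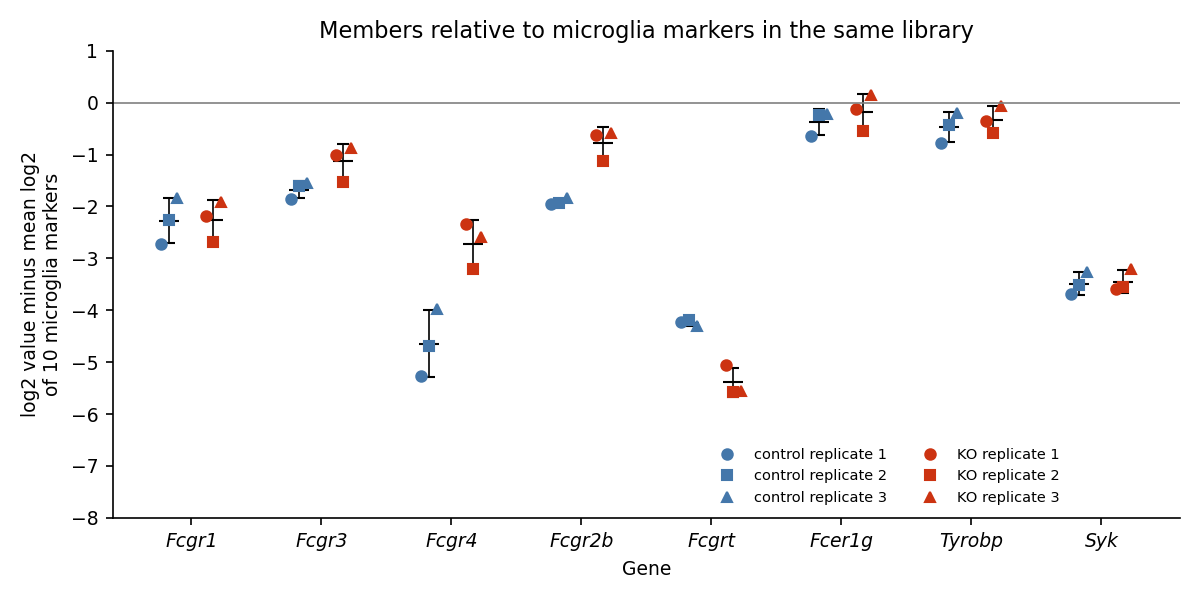
Log2 level of each gene minus the mean log2 level of 10 microglia markers in the same library (vertical axis), control in blue and KO in red, with the group mean and SD in black. Fcgr4, Fcgr2b and Fcgr3 are higher in all 3 KO libraries, Fcgrt is lower in all 3, and the groups overlap for the other 4 genes.

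Other cells that can carry Fc receptors were checked by their markers. Of 8 border macrophage markers, 2 were called higher (Mrc1 and Ms4a7) and 4 lower (Cd163, Lyve1, Pf4 and F13a1), and their sum went from between 15460 and 23297 normalized counts to between 22632 and 26283. Of 6 monocyte markers, 1 was higher and 1 lower, with sums of 2255 to 3258 in the control and 977 to 1951 in the KO libraries. Of 9 neutrophil markers, 6 were lower and 3 were not called, with sums of 792 to 6986 against 236 to 771. The highest control sum was that of control replicate 2. In control replicates 1, 2 and 3, S100a9 was at 265, 2275 and 542 normalized counts and Ngp at 186, 1895 and 481. The groups overlapped for S100a9 and Camp, although both were called lower. Of 8 dendritic cell markers, 4 were higher and 1 was lower, with sums of 1609 to 2795 against 6175 to 9504. The part of these cells in the levels of the 8 genes was not tested.

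Mast cells, NK cells and platelets also use the gamma chain or DAP12. The tryptase genes Tpsb2 and Tpsab1 of mast cells were at 0 in all 6 libraries, and of the 7 mast cell and basophil markers tested, 1 was called lower (Kit) and 6 were not called (sums of 435 to 618 against 114 to 227). Among the NK and T cell markers, Gzma was at 0 in all libraries, and 3 of the 9 tested were called higher (197 to 378 against 574 to 752). Of 4 B cell markers, 1 was called higher (129 to 153 against 311 to 549), and 1 of 5 platelet markers (136 to 148 against 178 to 215). Of the non-immune lists, 2 of 8 endothelial markers were higher and 4 lower (2078 to 3501 against 1835 to 2428), 9 of 10 neuronal markers were lower (24430 to 31031 against 3913 to 6412), and all 8 oligodendrocyte markers were lower (36912 to 63237 against 15590 to 25075).

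The genes with the most similar profiles over the 6 libraries were sought for Tyrobp and for Fcgrt, by the root mean square difference of log2 values, each gene centred on its own mean, among genes with a mean of at least 100 normalized counts. Nearest to Tyrobp were Tlr7 (0.04), which encodes an endosomal RNA sensor, Ptprc (0.05), which encodes the leukocyte phosphatase CD45, and Trim14, Tep1 and Aim2 (each 0.07). Among the 8 genes, Fcer1g was nearest to Tyrobp, at 0.09, followed by Syk at 0.11 and Fcgr1 at 0.14. Fcgr4 was farthest, at 0.94. Nearest to Fcgrt were Mex3b (0.09), Mmp14 (0.10), Ube2s, Pkdcc and Adam15 (each 0.12), and none of the other 7 genes came closer to Fcgrt than Syk, at 0.66.

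Other Fc-binding proteins, Fc receptor-like genes and B2m were compared as a list of 15 genes. Of these, 13 were tested, 4 were called higher and 2 lower, with a median log2 fold change of 1.23. That median is the value of Fcmr, which was not called and had at most 4 reads in any library. B2m, the light chain partner of FcRn, rose from 79196 ± 9858 to 398251 ± 46121 (SD, n = 3), a log2 fold change of 2.33 (SE 0.16, adjusted p = 5.43e-07), while its partner Fcgrt rose by 0.69. Trim21, an intracellular antibody receptor, rose from 784 ± 289 to 1544 ± 142 (1.04, adjusted p = 0.00195). Fcrl1 and Fcrlb, Fc receptor-like genes known from B cells, rose from 164 ± 48.2 to 618 ± 189 (1.90, adjusted p = 0.000152) and from 7.69 ± 4.18 to 28.3 ± 9.84 (1.80, adjusted p = 0.0118, or 0.0505 without KO replicate 2).

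Fcrls, an Fc receptor-like gene known as a microglial marker, was not called. It was at 16300, 16949 and 14482 normalized counts in the control libraries and at 8915, 21453 and 29098 in the KO libraries, so the KO group spanned the control group (log2 fold change 0.16, SE 0.34, adjusted p = 0.700). Its direction turned with quantile normalization, with scaling to an equal total and without KO replicate 3 (-0.20), and without KO replicate 1 it was called higher (0.65, adjusted p = 0.00359). Fcgbp (16.5 ± 10.8 to 1.81 ± 1.33 normalized counts, adjusted p = 0.0165) and Fcer2a (18.9 ± 3.01 to 6.91 ± 7.21, adjusted p = 0.0431), the low-affinity IgE receptor, fell from low levels. The call of Fcgbp was lost without control replicate 1, control replicate 3 or KO replicate 2 (adjusted p of 0.0715, 0.0734 and 0.0581). That of Fcer2a was lost without any 1 library other than KO replicate 3 (adjusted p between 0.0824 and 0.145), and in edgeR and DESeq2. The chains of the high-affinity IgE receptor that pair with the gamma chain were near 0, with Fcer1a at 1.84 and 1.52 normalized counts and Ms4a2 at 0.23 and 0 in the control and KO means.

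The other signalling adaptors had far fewer reads than Fcer1g and Tyrobp. Of 7, 2 were called higher and 0 lower in limma, with a median of 0.56. At an unadjusted p under 0.05 and 1.5-fold, 1 was lower, and 0 were by edgeR or DESeq2. Hcst, which encodes the adaptor DAP10, rose from 61.1 ± 11.5 to 222 ± 40.0 (1.84, adjusted p = 8.79e-05), and Cd79b, known from the B cell receptor, from 104 ± 23.9 to 378 ± 136 (1.81, adjusted p = 0.000179). Its partner Cd79a was at 29.2 ± 10.6 and 12.9 ± 9.95 (adjusted p = 0.0663), and the T cell receptor chain Cd3e at 9.16 ± 4.11 and 13.9 ± 5.48 (adjusted p = 0.383).

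Receptors that signal through Fcer1g, Tyrobp or Syk rose in most cases. Of 32 listed genes, 31 were in the tables and 27 were tested. Of these, 18 were called higher and 1 lower, with a median of 1.75. Csf1r, the receptor for CSF1, rose from 36390 ± 4827 to 145495 ± 22233 (SD, n = 3; log2 fold change 1.995, adjusted p = 1.16e-06), Siglech, a sialic acid-binding lectin, by 2.23, Trem2, a lipid receptor that pairs with DAP12, by 2.42 (adjusted p = 1.32e-07), and Clec7a, the beta-glucan receptor dectin-1, by 2.90 (adjusted p = 1.87e-08). Csf1r and Siglech are also among the 10 microglia markers. The largest changes were in genes of few reads, Pira2 (1, 25 and 2 reads in the control and 88, 193 and 55 in the KO libraries) and Klrk1 (10, 37 and 7 against 176, 464 and 121). The fitted log2 fold change of Pira2 was 3.87, with 3.26 without control replicate 1 and 4.70 without control replicate 2, and that of Klrk1 was 3.41. Oscar, a collagen receptor that pairs with the gamma chain, fell from 12.8 ± 8.05 to 0.837 ± 0.771 normalized counts (adjusted p = 0.00418). Klra4, Klra8 and Pira11 were at 0 in all libraries.

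Most kinases and effectors downstream of the ITAM were called higher. Of 43 genes, 42 were tested, 31 were called higher and 4 lower, with a median of 1.61. Among the most abundant, Lyn, a Src family kinase, rose from 11625 ± 357 to 26799 ± 1278 (log2 fold change 1.204, adjusted p = 8.73e-07). Fyb, an adaptor of integrin activation, rose by 2.13 (adjusted p = 1.86e-08) and Nckap1l, of the actin-regulating WAVE complex, by 1.91 (adjusted p = 5.87e-08). The GTPase Rac1 was at 29690 ± 2370 and 37989 ± 1802 (0.36, not called), and after quantile normalization its value was -0.25. Blnk, an adaptor that Syk phosphorylates, rose by 2.18 (adjusted p = 4.79e-08) and the exchange factor Vav3 fell from 1280 ± 67.3 to 261 ± 56.8 (-2.31, adjusted p = 7.31e-07).

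The following genes were picked after their values were seen. Vav1 and Vav2 rose by 1.92 and 1.67 on the log2 scale, opposite to Vav3. Phospholipase Plcg2 rose by 1.70, and Plcg1 fell by 1.40. Of the Src family, Fyn fell by 1.48 and Src fell by 0.89, while Yes1 (-0.07) and Fgr (0.38) were not called. The value of Fgr turned to -0.05 without control replicate 1, and the directions of the called genes in this paragraph held under each scaling tried. Rac2 rose by 1.59 and Btk, a Tec family kinase activated behind Syk, by 1.96.

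Genes that restrain ITAM signalling also rose. Of 37 listed, 35 were in the tables and tested, 29 were called higher and 2 lower, with a median of 1.52. Laptm5, a lysosomal protein, rose from 15910 ± 951 to 56799 ± 6099 (log2 fold change 1.83, adjusted p = 2.27e-07), Sirpa, the receptor for CD47, by 1.54, and the phosphatase Ptprj by 1.34. The sialic acid-binding ITIM receptors Cd33 and Cd22 rose by 2.14 and 3.28, Cd22 from 503 ± 84.7 to 4869 ± 426 (adjusted p = 2.42e-08), and Cd300lf by 2.68 (adjusted p = 0.000630). Of the phosphatases that FcγRIIb and other ITIM receptors recruit, also picked after their values were seen, Inpp5d (SHIP1) rose by 1.97 and Ptpn6 (SHP-1) by 2.30, whereas Ptpn11 (SHP-2), which most cell types express, fell by 0.73. Dok2, at 33.7 ± 3.27 and 16.2 ± 6.10 normalized counts, was called lower (adjusted p = 0.0477), a call lost in 12 of the 18 other settings.

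**Figure D5:**
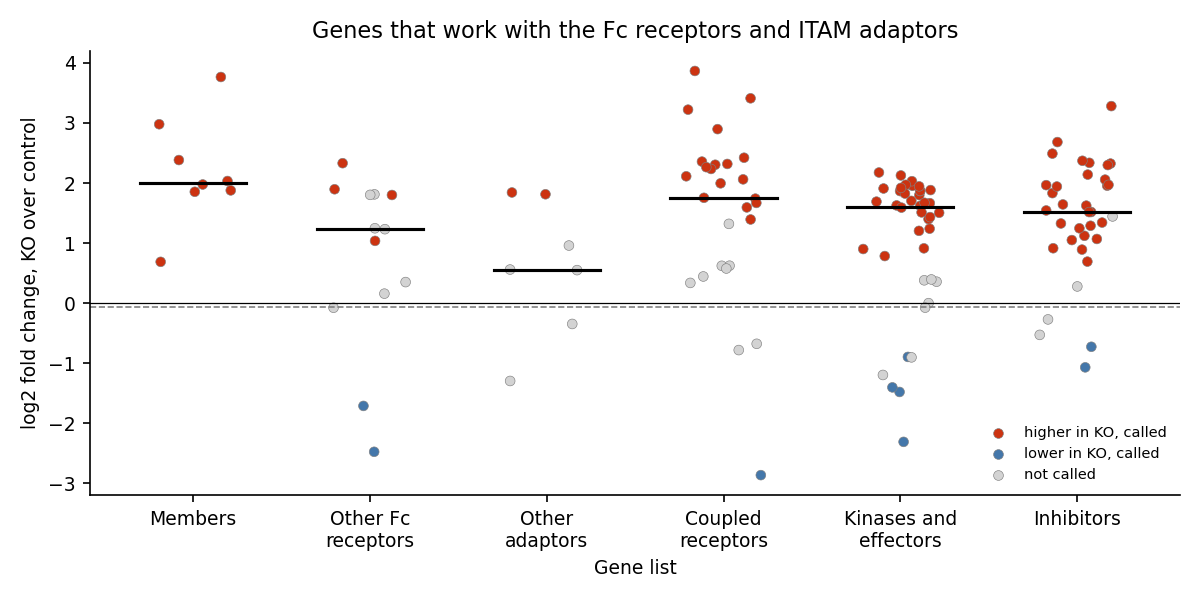
Log2 fold change, KO over control (vertical axis), of each gene tested in 6 lists (horizontal axis), red where called higher, blue where called lower and grey where not called. Black bars are the medians (2.005, 1.23, 0.56, 1.75, 1.61 and 1.52 from left to right), the dashed line is the median of all genes tested (-0.07), and horizontal positions within a list are spread at random.

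The counts of these lists stand beside the 22.2% of all genes that were called higher and the 28.8% called lower, and no list was tested as a set. Of the antibody genes listed, Jchain, which joins the units of polymeric IgM and IgA, was in the tables. It had 3, 1 and 2 reads in the control libraries and 717, 2793 and 413 in the KO libraries, or 2.74 ± 1.88 and 814 ± 254 normalized counts (SD, n = 3, adjusted p = 1.93e-07). Its fitted log2 fold change of 7.88 ran from 6.71 to 8.52 over the other settings, since the control libraries were close to 0. The immunoglobulin heavy and light chain genes were not analysed here.

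In the chromosome 1 stretch that holds Fcgr2b, Fcgr4, Fcgr3 and Fcer1g, 8 other listed genes lie between or among them, a set picked by position after the values of the 4 were known. Of the 7 tested, 1 was called higher (Cfap126, 85.8 ± 18.4 to 141 ± 18.1), 2 were called lower and 4 were not called, with a median of -0.16. Sdhc, a subunit of succinate dehydrogenase, fell by 0.75 on the log2 scale (adjusted p = 0.000136), and Pcp4l1 fell by 2.498 (adjusted p = 6.19e-07).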

How the data were processed

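RNA-seq was analysed in 6 libraries of sorted olfactory bulb cells, 3 control and 3 KO. Per the study's methods and the submitters' processing notes, reads were mapped to mm10 with STAR 2.5.0a, GenomicAlignments and GenomicFeatures gave the counts per gene, and DESeq2 1.20.0 normalized them, with samtools also named for depth. Not given in the sources used here were the annotation and the strand setting. The signal values that the authors deposited under the name RPM equal reads over a size factor, 1 for each library, and 100% of them were whole multiples of 1 read within 0.01 read, and 1 read was worth between 0.395 and 1.58.

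Genes with a mean of at least 1 were tested with limma 3.58.1 (R 4.3.3), with a variance trend and Benjamini-Hochberg adjustment, after a pseudocount of 1 and a log2 transform, which makes the changes of low genes look smaller. The scripts were tested on simulated data in which few genes changed, equally many up and down. That setting does not cover data in which many genes change, as here. The recovered reads were also tested with edgeR 4.0.16 and DESeq2 1.42.0. Ratios were tested with two-sided exact permutation tests. Each mouse gave 1 library, and the p-values measure the spread between mice, with 3 per group. Alternatives covered the pseudocount (0.1 and 5), the filter (none and 10), the scaling, the trend, the block, the thresholds and leaving out each library.

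The genes, the lists and the markers were chosen with earlier results of these data known. Named from each list were the 4 genes with the highest mean and the 2 further called genes with the largest change. The lists were of Fc-binding proteins with Fc receptor-like genes and B2m, adaptors, coupled receptors, kinases and effectors, inhibitors and antibody genes. Also named were 5 profile neighbours each of Tyrobp and Fcgrt. Other genes named were picked after their values were seen, and 1 gene of these lists is not reported here. Promoter sequences and gene coordinates are RefSeq's (GRCm38.p6), and transcript lengths GENCODE's (vM21). No protein sequences were used here.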

Additional observations from a re-analysis of the deposited data

How the results depend on the processing

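Of the 144 values that the 8 genes took over 18 other settings, 139 kept their direction and their side of the threshold. The exceptions were all of Fcgrt. Its log2 fold change was 0.36 (adjusted p = 0.114) with the same total without Rn45s and 0.45 (adjusted p = 0.0430) with the same total. It was 0.69 (adjusted p = 0.0501) without a variance trend. Without KO replicate 1 it was 0.48 (adjusted p = 0.0341), and without control replicate 3 it was 0.60 (adjusted p = 0.0636). Over all fits without 1 library it ran from 0.48 to 0.88. The scalings to a total shift all genes down by their construction, and the cause of the other exceptions was not tested. At 2-fold, 7 of the 8 genes were called. Deviations of control and KO libraries with the same replicate number correlated at -0.05, -0.01 and -0.01 over 18413 genes. Those with different numbers correlated between -0.02 and 0.03. With 3 libraries per group, these values cannot establish whether libraries were paired. With a replicate block all 8 genes were called, with Fcgrt at 0.69. The 46 other genes followed gave 826 values, of which 787 were the same in direction and call, 28 lost and 5 gained a call, and 6 turned. Those 6 were Fcrls (-0.17 and -0.084 with the totals without and with Rn45s, -0.46 after quantile normalization, and between -0.20 and 0.65 without 1 library, with -0.20 without KO replicate 3 and 0.65, then called, without KO replicate 1), Rac1 (-0.25 after quantile normalization) and Fgr (between -0.049, without control replicate 1, and 0.74 without 1 library). Relative to the microglia markers, Fcgr1 and Syk turned to -0.11 and -0.090 with the median marker. Against the microglia and border macrophage markers together all 8 values moved up, to 1.01 for Fcgr1, 2.13 for Fcgr2b, 1.54 for Fcgr3, 2.92 for Fcgr4, -0.16 for Fcgrt, 1.19 for Fcer1g, 1.13 for Tyrobp and 1.03 for Syk, since the added list has a lower median (-0.54). Without 1 library, Fcgr1 ran from -0.20 to 0.23, Tyrobp from -0.015 to 0.27 and Syk from -0.086 to 0.15. Counts of called lower genes in the lists were small and moved. The count for the list of other Fc-binding and Fc receptor-like genes went from 2 to 1 in edgeR and in DESeq2. It also went to 1 with a minimum mean of 10, with no filter, with no trend and at a pseudocount of 0.1. After quantile normalization it went to 0, and without 1 library to between 0 and 2. Adaptors went from 0 to 1 with both totals, with the replicate block and at an unadjusted p, and to between 0 and 1 without 1 library. Coupled receptors went from 1 to 0 at a minimum mean of 10, which removes the gene. Inhibitors went from 2 to 1 in edgeR, in DESeq2, with TMM factors, with no filter, at a pseudocount of 0.1, after quantile normalization, with the replicate block and at 2-fold, and to between 1 and 2 without 1 library. In the control libraries, Fcgr4 and Fcgrt had the fewest reads of the 8 genes. In control replicates 1, 2 and 3, Fcgr4 had 221, 585 and 407 reads and Fcgrt 454, 823 and 325. In KO replicates 1, 2 and 3, Fcgrt had 1252, 2298 and 471. The low genes of the lists had fewer reads, and how far depth limits any of these genes was not tested.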
